A study of Mus musculus with 3 samples.

Results

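Malat1, Neat1, Meg3, Rian, Mirg, Miat and Snhg11 are 7 long noncoding RNAs that are known to stay largely in the nucleus, which makes them well represented in single-nucleus libraries. They were picked by symbol, with earlier results of these data known, and are 7 of the 32285 genes in the tables. Their levels were followed through the cell classes of the hippocampus. All nuclei came from 1 group: 3 adult female mice, labelled post-onset, with the genotype Scn8aD/+, in which 1 copy of Scn8a, a gene for a neuronal voltage-gated sodium channel, carries the D allele. Each mouse gave 1 library and carries its own batch number (1, 2 and 3), so animal and batch cannot be told apart. The protocol text of these samples speaks only of animals before onset and controls, so stage and age rest on the titles and the age label. Mice before onset and control mice were not analysed here, so nothing below compares genotypes or stages. The comparisons were between cell classes of the same animals, and no treatment was given in the labels.

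Malat1 gathers in nuclear speckles, which hold splicing factors. Neat1 is the scaffold of paraspeckles: its long isoform builds the body around proteins such as Nono and Sfpq. Meg3, Rian and Mirg lie next to one another on the same strand in the imprinted Dlk1-Dio3 domain and are made from the maternal copy, whereas Dlk1, Rtl1 and Dio3 are made from the paternal copy. Rian carries C/D box small nucleolar RNAs (snoRNAs) in its introns, and Mirg carries a large miRNA cluster. Miat, also called Gomafu, forms its own nuclear domain in neurons and binds splicing factors including Qk and Celf3. Snhg11 is a snoRNA host gene known from neurons.

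On GRCm38, Meg3 spans chr12:109541001-109571726, Rian chr12:109603940-109661716 and Mirg chr12:109729764-109749460, all on the plus strand. Malat1 spans chr19:5795690-5802672 and Neat1 chr19:5824708-5845478, both on the minus strand. Snhg11, which this annotation (GENCODE M21) lists as protein_coding although it is known as a noncoding host gene, spans chr2:158375638-158386145 on the plus strand and Miat chr5:112213228-112229395 on the minus strand. In the annotation, Rian contains 13 snoRNA genes, Snhg11 contains 2, and Mirg contains 14 miRNA genes on its own strand. None of these small RNAs had an entry in the count tables. Only Miat overlapped another listed gene, the opposite-strand Gm26953 at chr5:112215461-112233720.

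The RefSeq table (GRCm38.p6) held 35 mature miRNAs within the domain transcripts: 3 in Meg3, 6 in Rian and 26 in Mirg. The libraries count the host transcripts and do not measure these miRNAs. The lines below give 1 miRNA from Meg3, 1 from Rian and 5 from Mirg, to show what the hosts carry. Capitals mark the seed, bases 2 to 8, by which a miRNA pairs with its targets. The last pair share the seed GGUUGCC, and no other seed occurred in more than 1 of the 35.
mmu-miR-770-5p: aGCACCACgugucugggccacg
mmu-miR-370-3p: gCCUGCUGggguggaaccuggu
mmu-miR-134-5p: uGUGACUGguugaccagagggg
mmu-miR-154-3p: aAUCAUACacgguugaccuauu
mmu-miR-410-3p: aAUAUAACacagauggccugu
mmu-miR-453: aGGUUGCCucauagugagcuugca
mmu-miR-496a-5p: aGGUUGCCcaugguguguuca

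The Meg3 promoter is shown because the domain transcripts had similar profiles of class means. Whether the promoter has a part in those profiles was not tested. The window shown covers chr12:109540746-109541045 on the plus strand (RefSeq, GRCm38.p6). Capitals mark TGACGTCA, the full cAMP response element, which starts 57 bases before the gene start of this RefSeq entry. That start is not the GENCODE start given above.
Meg3 promoter: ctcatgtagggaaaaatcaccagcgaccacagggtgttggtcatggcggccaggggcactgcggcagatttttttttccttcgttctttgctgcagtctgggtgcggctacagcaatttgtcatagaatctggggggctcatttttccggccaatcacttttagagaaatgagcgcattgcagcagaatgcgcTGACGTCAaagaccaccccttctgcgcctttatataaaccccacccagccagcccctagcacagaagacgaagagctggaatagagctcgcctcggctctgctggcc
Searched on both strands, TGACGTCA occurred in 588 of 32851 promoters of this length (1.79%), and the shorter TGACG, which it contains, in 6837 (20.8%). A second Meg3 entry and the promoters of Rian, Mirg, Miat and Snhg11 held neither, and that of Malat1 held only TGACG. No promoter entry was available for Neat1, so none was searched. These matches describe letters in the window and show nothing about binding.

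The platform primes on poly(A) tails, so the 3' ends of Malat1 and Neat1 bear on what can be counted. The last 60 bases of 1 Malat1 and 2 Neat1 transcripts are given (GENCODE M21, GRCm38, minus strand), with AATAAA, the polyadenylation signal, in capitals. They lie at chr19:5795690-5795749 for Malat1-201 (6983 bases long), chr19:5842307-5842366 for Neat1-202 (3004 bases) and chr19:5824708-5824767 for Neat1-201 (20771 bases).
Malat1-201: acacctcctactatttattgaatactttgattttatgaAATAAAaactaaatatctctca
Neat1-202: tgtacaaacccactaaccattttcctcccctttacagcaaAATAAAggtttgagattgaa
Neat1-201: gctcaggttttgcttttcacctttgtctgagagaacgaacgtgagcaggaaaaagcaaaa
The long isoform Neat1-201, the one that builds paraspeckles, had no AATAAA in this stretch. Counts per gene do not separate the 2 isoforms. The capitals mark letters in the annotated ends and do not show that Malat1 or Neat1 carries a poly(A) tail. How either RNA was primed was not tested.

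The 3 libraries held 8863, 13904 and 4659 barcodes (mice 1, 2 and 3), with 100230288, 50931257 and 140527761 UMIs (counted molecules) and their barcodes held a median of 8859, 1711 and 25775 UMIs. Filters left 7889, 11756 and 4393 nuclei. Between 38 and 61 barcodes of a library also occurred in another. Clusters were named from markers as classes "like" a cell type, and 18 such classes were measured, each in every mouse where it had 20 nuclei or more. None was mossy-like, and 300, 3498 and 2 nuclei stayed unnamed. The members took no part in clustering. Levels are CPM, counts per 1e6 summed UMIs of a class in 1 mouse, and SDs are over mice. A gene was called where edgeR's quasi-likelihood test, with mouse as a block, gave an adjusted p under 0.05 over all genes tested and a fold of at least 2. An unadjusted p under 0.05 in edgeR was common, and counts of it below are to be set beside all genes. It was found for 8470 of 17633 genes in neuron-, 6660 of 16640 in inhibitory- and 6302 of 16712 in granule-like nuclei. In CA3-, OPC- and microglia-like nuclei it was found for 4533 of 15100, 4261 of 12211 and 4578 of 13136. CPM depends on transcript length and 3' ends, so levels are compared between classes and not between genes.

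Mouse 2 stood apart from the others. Its library was shallow, and most of its glia-like nuclei lay in shallow clusters that also held neuronal RNA. The 7 pan-glutamatergic markers, summed, reached 20.9%, 57.8% and 20.6% of the glutamatergic-like level in glia-like nuclei of mice 1, 2 and 3, with none of the 7 at 0. In inhibitory-like nuclei they reached 19.2%, 45.7% and 21.0%. The part of this RNA in the results was not tested, and values without mouse 2 or with nuclei of at least 2500 UMIs are given where they matter. In the opposite direction, 10 oligodendrocyte markers in neuron-like nuclei reached 1.62%, 5.90% and 1.80% of their oligodendrocyte-like level.

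**Figure D1:**
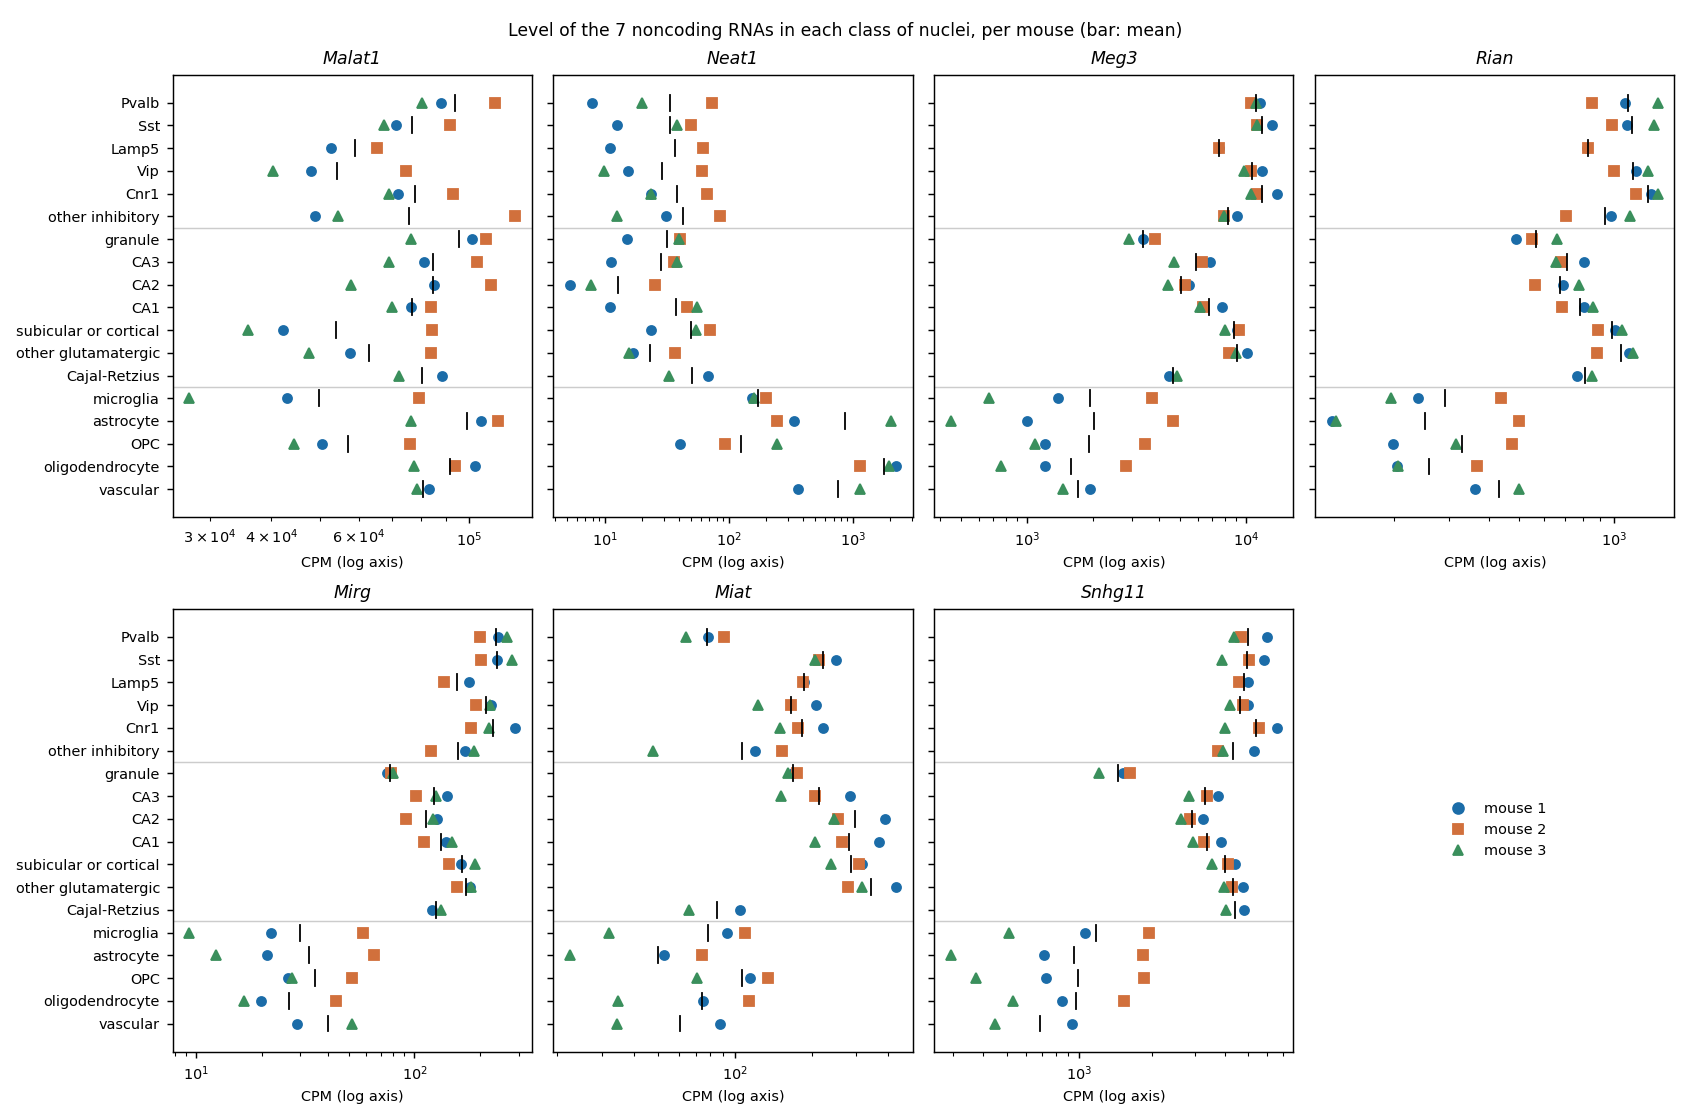
Level of each RNA (CPM, log axis) in each class of nuclei, with 1 point per mouse and a bar at the mean. By class means, Neat1 was highest in oligodendrocyte-like nuclei and Meg3, Rian, Mirg and Snhg11 were lower in glia-like than in neuron-like classes, while in single mice some classes crossed (Meg3 in mouse 2 had 4627 CPM in astrocyte-like and 3820 CPM in granule-like nuclei), and Malat1 spread over a narrow range in which neighbouring classes overlapped.

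Neuron-like nuclei had more Snhg11, Miat, Rian and Mirg than glia-like nuclei, and far less Neat1. Of the 7 RNAs, 5 were called, 4 higher and 1 lower, where 26.4% of the 17633 genes tested were called (11% higher and 15.4% lower). The members' median log2 fold was 2.08, beside 0.03 over all genes tested. Neuron-like nuclei here join glutamatergic-like, inhibitory-like and Cajal-Retzius-like classes, and glia-like nuclei join oligodendrocyte-, oligodendrocyte precursor (OPC)-, astrocyte- and microglia-like classes. No gene at all was called when mouse 1 or mouse 3 was left out. Without mouse 2, 6 members were called, where 6611 of 19491 genes were called.

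Malat1 was the most uniform of the 7. It had 77848, 96616 and 66169 CPM in neuron-like nuclei, against 83503, 85571 and 62082 CPM in glia-like nuclei of mice 1, 2 and 3. These ranges overlapped, and the difference did not pass the test (log2 fold 0.44 ± 1.93 SE, adjusted p = 0.871, edgeR). The SE is that of the fit and is wider than the range of the log2 ratios within mice (-0.10, 0.18 and 0.09), so it does not measure the spread between mice. Every nucleus thinned to 1000 UMIs, in each of the 18 classes, held at least 1 Malat1 UMI (100%).

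Among the 18 classes, Malat1 averaged from 99102 ± 19984 CPM in astrocyte-like nuclei to 49881 ± 26721 CPM in microglia-like nuclei (SD, n = 3 each), and each class overlapped its neighbours in the order. Subicular or cortical-like (54090 CPM), Vip-like (54336 CPM) and OPC-like nuclei (57094 CPM) were also at the low end. In OPC-like nuclei Malat1 had 50696, 76216 and 44372 CPM, against 103111, 93753 and 77562 CPM in oligodendrocyte-like nuclei. The groups did not overlap and OPC-like nuclei were lower in 3 of 3 mice, but the test was not passed (log2 fold -0.74 ± 0.98 SE, adjusted p = 0.642, edgeR). Here too the SE of the fit is wider than the range of the log2 ratios within mice (-1.02, -0.30 and -0.81).

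Microglia-like nuclei had 43030, 79360 and 27252 Malat1 CPM, against the same oligodendrocyte-like values. They were lower in 3 of 3 mice, with the microglia-like value of mouse 2 above the oligodendrocyte-like value of mouse 3. The log2 fold was -1.33 ± 2.42 SE with an adjusted p of 0.748 in edgeR, whereas DESeq2 gave -1.26 with an adjusted p of 0.0393. The log2 ratios within mice were -1.26, -0.24 and -1.51, a range narrower than the SE of the edgeR fit. Without mouse 2 the edgeR value was -1.77 with an adjusted p of 0.0136. Malat1 in microglia-like nuclei therefore passed or failed by tool and by library. In mouse 2 these nuclei lay mostly in a shallow cluster (1068 nuclei, median 1200 UMIs) with 76766 Malat1 CPM and in a cluster of 96 nuclei with 103848 Malat1 CPM and 5378 Meg3 CPM. The 80 nuclei of mouse 2 in the cluster that held most microglia-like nuclei of mouse 1 had 33470 Malat1 CPM.

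Within neurons, Malat1 had 101672, 108466 and 76556 CPM in granule-like nuclei, the cells of the dentate gyrus, against 78475, 95677 and 68993 CPM in CA pyramidal-like nuclei. Granule-like nuclei were higher in 3 of 3 mice by a log2 fold of 0.30 ± 0.15 SE, which did not pass the test (adjusted p = 0.206, edgeR). Per nucleus, the median share of UMIs that were Malat1 was 10.3%, 6.45% and 7.77% in granule-like nuclei of mice 1, 2 and 3, against 7.38%, 5.14% and 7.06% in CA1-like nuclei. It was 4.28%, 5.42% and 2.78% in microglia-like nuclei, against 10.0%, 6.62% and 7.28% in oligodendrocyte-like nuclei. Depth moved with this share in granule-like nuclei of mouse 2, where Spearman's rho between Malat1 share and UMIs was 0.61, against -0.03 and -0.14 in mice 1 and 3.

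**Figure D2:**
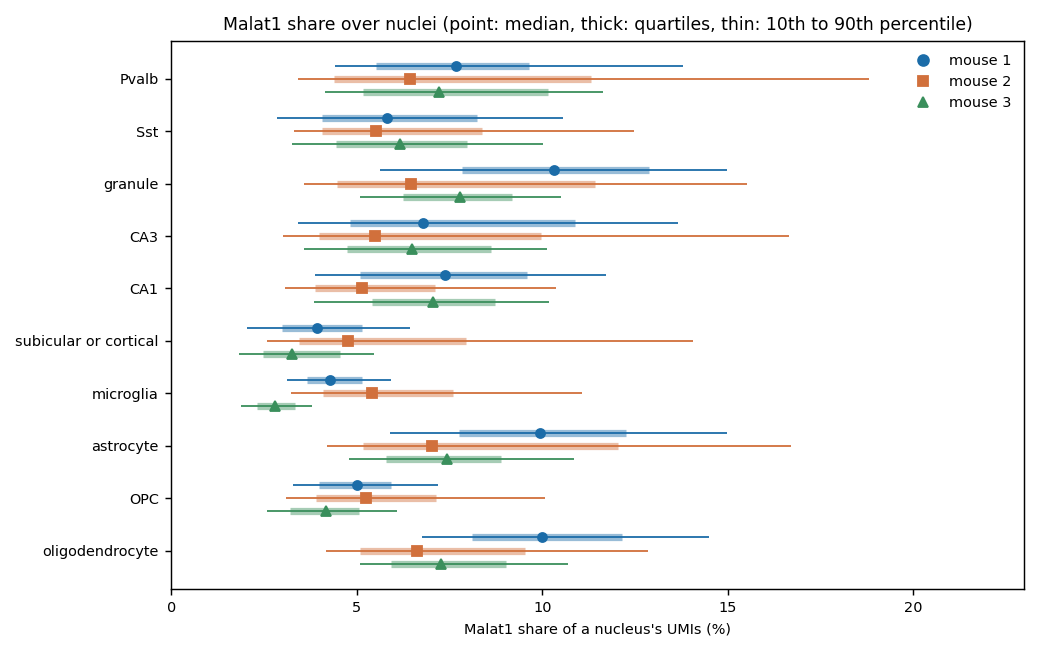
Malat1 as a percent of each nucleus's UMIs, by class and mouse, with the median as a point, quartiles as a thick line and the 10th to 90th percentile as a thin line. Microglia- and OPC-like nuclei of mice 1 and 3 had medians of 2.78% to 4.99%, under the 7.28% and 10.0% of oligodendrocyte-like nuclei of the same mice.

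Neat1 was lower in neuron-like than in glia-like nuclei, with the widest range over classes of the 7. It had 14.5, 49.7 and 38.4 CPM in neuron-like nuclei, against 1457, 543 and 1316 CPM in glia-like nuclei. The groups did not overlap, and neuron-like nuclei were lower by a log2 fold of -4.65 ± 0.74 SE (adjusted p = 0.0215, edgeR). Without mouse 2 the log2 fold was -5.36 (adjusted p = 0.0008), without mouse 1 -3.83 (adjusted p = 0.0723) and without mouse 3 -4.81 (adjusted p = 0.122).

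Within glia, Neat1 had its highest mean in oligodendrocyte-like nuclei, the myelinating cells. OPC-like nuclei, the precursors, had 40.7, 94.0 and 245 CPM, against 2239, 1136 and 1970 CPM in oligodendrocyte-like nuclei. OPC-like values were lower in 3 of 3 mice, by a log2 fold of -4.09 ± 0.63 SE (adjusted p = 0.0121, edgeR; without mouse 3 -4.72, adjusted p = 0.0994). Neat1 was the only member called there, where 17.7% of 12211 genes were called (9.75% upward and 7.99% downward). The members' median log2 fold was 0.23, beside -0.03 over all genes.

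Microglia-like nuclei had 155, 199 and 160 Neat1 CPM against the same oligodendrocyte-like values, a log2 fold of -3.66 ± 0.54 SE (adjusted p = 0.0215, edgeR), again the only member called, where 16.6% of 13136 genes were called (10.3% upward and 6.3% downward). The members' median log2 fold was -0.26, beside -0.10 over all genes. Neat1 was not called without mouse 1 (-3.35, adjusted p = 0.175) or without mouse 3 (-3.41, adjusted p = 0.145). Both glial comparisons share the oligodendrocyte-like sums.

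The next classes in Neat1 level were astrocyte-like nuclei with 338, 246 and 2016 CPM and vascular-like nuclei with 363 and 1148 CPM in mice 1 and 3. Astrocyte-like values spread widely, and the mouse 3 value lay within the oligodendrocyte-like range. Neuron-like classes averaged from 12.9 CPM in CA2-like to 50.3 CPM in Cajal-Retzius-like nuclei. In nuclei thinned to 1000 UMIs, Neat1 was seen in 1.56%, 7.03% and 3.61% of neuron-like nuclei of mice 1, 2 and 3, against 79.2%, 55.7% and 77.8% of oligodendrocyte-like nuclei.

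Before thinning, the shares with a Neat1 UMI were 14.9%, 17.8% and 41.8% of neuron-like nuclei, whose depth was greater, and 93.2%, 63.4% and 98.3% of oligodendrocyte-like nuclei. Thinned shares were 12.2%, 15.5% and 14.1% in microglia-like and 8.37%, 9.49% and 15.5% in OPC-like nuclei. Astrocyte-like nuclei reached 38.5%, 21.6% and 71.3%. The part of free RNA in the neuron-like share was not tested.

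Most oligodendrocyte-like nuclei of mouse 2 lay in 1 shallow cluster. That cluster (1027 nuclei, median 1154 UMIs) had 787 Neat1 CPM and 3948 Meg3 CPM. The smaller and deeper oligodendrocyte-like clusters of mouse 2 (92 and 134 nuclei) had 1506 and 1988 Neat1 CPM and 747 and 552 Meg3 CPM, nearer to the class values of the other mice.

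**Figure D3:**
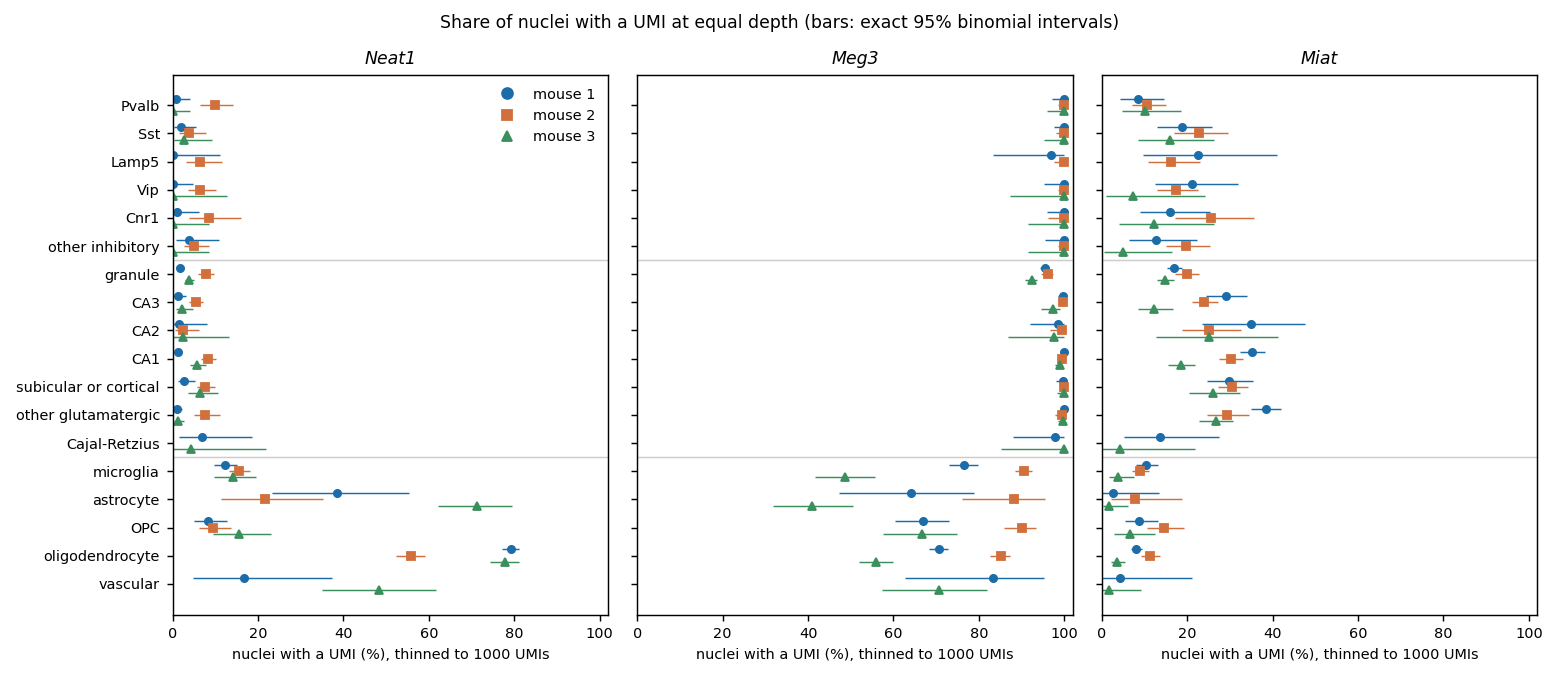
Percent of nuclei with at least 1 UMI of Neat1, Meg3 or Miat after thinning every nucleus to 1000 UMIs, by class and mouse, with exact 95% binomial intervals that cover counting error only. Neat1 reached 55.7% to 79.2% of oligodendrocyte-like nuclei, Meg3 nearly all nuclei of neuron-like classes, and Miat fewer Pvalb-like (8.40% to 10.6%) than CA1-like nuclei (18.6% to 35.3%).

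The 3 transcripts of the imprinted domain had similar profiles of class means. Cnr1-, Sst-, Pvalb- and Vip-like nuclei had the highest means, the CA classes lay lower, granule-like nuclei had the lowest mean of the neuron-like classes, and glia-like classes lay below them. Meg3 had 7401, 7089 and 5862 CPM in neuron-like nuclei, against 1239, 3378 and 759 CPM in glia-like nuclei. The groups did not overlap, but mouse 2 had by far the most Meg3 in glia-like nuclei, and the log2 fold of 2.60 ± 0.75 SE missed the test in edgeR (adjusted p = 0.0572). DESeq2 called Meg3, with a log2 fold of 2.62 and an adjusted p of 3.7e-07. With nuclei of at least 2500 UMIs it was 2.65 (adjusted p = 0.0404), and without mouse 2 it was 3.27 (adjusted p = 0.0010). Glia-like Meg3 amounted to 16.7%, 47.6% and 12.95% of the neuron-like level, and mouse 2 also had the largest value of the glutamatergic markers there. The part of free RNA in glia-like Meg3 was not tested.

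Rian had 819, 740 and 870 CPM in neuron-like nuclei, against 209, 418 and 214 CPM in glia-like nuclei, and Rian was called higher (log2 fold 2.00 ± 0.43 SE, adjusted p = 0.0338, edgeR). Mirg had 142, 123 and 140 CPM in neuron-like nuclei, against 21.3, 52.1 and 16.9 CPM in glia-like nuclei, and was also called higher (2.73 ± 0.51 SE, adjusted p = 0.0272). Neither pair of groups overlapped. Without mouse 1, 2 and 3 the adjusted p of Rian was 0.195, 0.0009 and 0.144, and that of Mirg was 0.127, 0.0004 and 0.122.

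Inhibitory-like nuclei had more Meg3 and Mirg than glutamatergic-like nuclei, at under 2-fold. Meg3 had 11842, 9565 and 10390 CPM in inhibitory-like nuclei, against 6812, 6438 and 5375 CPM in glutamatergic-like nuclei. Mirg had 233, 165 and 246 CPM in inhibitory-like nuclei, against 130, 112 and 129 CPM in glutamatergic-like nuclei. Neither overlapped, and both passed the adjusted p (Meg3 log2 fold 0.67 ± 0.16 SE, adjusted p = 0.0355; Mirg 0.67 ± 0.10 SE, adjusted p = 0.0109; edgeR). Leaving out mice 1, 2 and 3 gave adjusted p of 0.241, 0.0552 and 0.125 for Meg3 and of 0.109, 0.0197 and 0.0285 for Mirg, and without the mouse block they were 0.334 and 0.223.

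Rian had 1103, 869 and 1316 CPM in inhibitory-like nuclei, against 780, 706 and 821 CPM in glutamatergic-like nuclei, apart in level but short of the adjusted p (log2 fold 0.39 ± 0.12 SE, adjusted p = 0.0689, edgeR). None of the 7 members reached both thresholds between these classes, where 15.1% of 16640 genes were called in edgeR (7.85% higher and 7.24% lower). DESeq2 called 0 members too (and 2538 of the 16640 genes). In edgeR 5 members had an unadjusted p under 0.05, as did 6660 of the 16640 genes. The 4 that passed the adjusted p alone were Meg3, Mirg, Snhg11 and Miat. The members' median log2 fold was 0.39, beside -0.01 over all genes.

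Granule-like nuclei had the least domain RNA among neuron-like classes. Meg3 had 3377, 3820 and 2905 CPM in granule-like nuclei, against 7346, 6196 and 5550 CPM in CA pyramidal-like nuclei, without overlap (log2 fold -0.85 ± 0.15 SE, adjusted p = 0.011, edgeR). Mirg had 74.9, 78.0 and 80.0 CPM in granule-like nuclei, against 139, 105 and 139 CPM in CA pyramidal-like nuclei, likewise without overlap (-0.64 ± 0.14 SE, adjusted p = 0.0226). Rian had 487, 550 and 661 CPM in granule-like nuclei, against 795, 668 and 783 CPM in CA pyramidal-like nuclei, and did not pass (-0.34 ± 0.16 SE, adjusted p = 0.173). Leaving out mouse 1 gave an adjusted p of 0.0793 for Meg3 and 0.118 for Mirg, leaving out mouse 3 gave 0.056 for Mirg, and without the mouse block they were 0.213 and 0.284. Of the 7, 1 member was called here, Snhg11, where 16% of 16712 genes were called (5.53% higher and 10.5% lower), with a median log2 fold of -0.50 over the members and 0.03 over all genes.

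By class, Meg3 averaged 11861 ± 1756 CPM in Cnr1-like, 11843 ± 1160 in Sst-like, 11065 ± 494 in Pvalb-like and 10690 ± 1017 in Vip-like nuclei (SD, n = 3 each), and these 4 overlapped. Some of these names rest on clustering the libraries together. With each library clustered alone, no cluster of any mouse was named Cnr1-like. In mouse 2 none was then named Pvalb-, Sst- or other glutamatergic-like, and 622 of its nuclei were other inhibitory-like. Other glutamatergic-like (9123 CPM) and subicular or cortical-like nuclei (8802 CPM) came next, above other inhibitory-like (8300 CPM) and Lamp5-like nuclei (7517 CPM, n = 2). CA1-like nuclei had 6739 CPM, CA3-like 5927 CPM and CA2-like 5040 CPM. Granule-like nuclei, at 3368 ± 458 CPM, did not overlap the Cajal-Retzius-like class just above (4623 CPM, n = 2). The glia-like classes averaged from 1594 CPM in oligodendrocyte-like to 2023 CPM in astrocyte-like nuclei, with mouse 2 highest in each of these 4 classes.

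Rian and Mirg means were also higher in other glutamatergic-like (1050 and 172 CPM) than in Lamp5-like nuclei (825 and 157 CPM). Rian ran from 1287 ± 105 CPM in Cnr1-like nuclei through 566 ± 88.1 CPM in granule-like to 252 CPM in astrocyte-like nuclei. Mirg ran from 240 ± 39.6 CPM in Sst-like nuclei through 77.6 ± 2.56 CPM in granule-like to 26.8 CPM in oligodendrocyte-like nuclei, and granule-like nuclei overlapped neither neighbouring class in that order. After thinning, Mirg was seen in 19.2%, 14.7% and 21.2% of inhibitory-like nuclei, against 11.5%, 10.9% and 11.3% of glutamatergic-like nuclei. It was seen in 2.00%, 5.28% and 2.13% of glia-like nuclei.

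The proportions of the 3 transcripts were less even than their profiles. Per 100 Meg3 UMIs, neuron-like nuclei of mice 1, 2 and 3 had 11.1, 10.4 and 14.8 Rian UMIs, and glia-like nuclei had 16.8, 12.4 and 28.2. Granule-like nuclei had 14.4, 14.4 and 22.8, against 10.3, 10.8 and 13.97 in CA1-like nuclei. Rian was thus proportionally higher in glia-like than neuron-like nuclei of each mouse, with mouse 3 highest and mouse 2 closest to its own neuron-like ratio. Mirg per 100 Meg3 UMIs was 1.92, 1.73 and 2.39 in neuron-like and 1.72, 1.54 and 2.23 in glia-like nuclei, and class means ran from 1.51 in microglia-like to 2.72 in Cajal-Retzius-like nuclei. These ratios are descriptions, with no test.

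**Figure D4:**
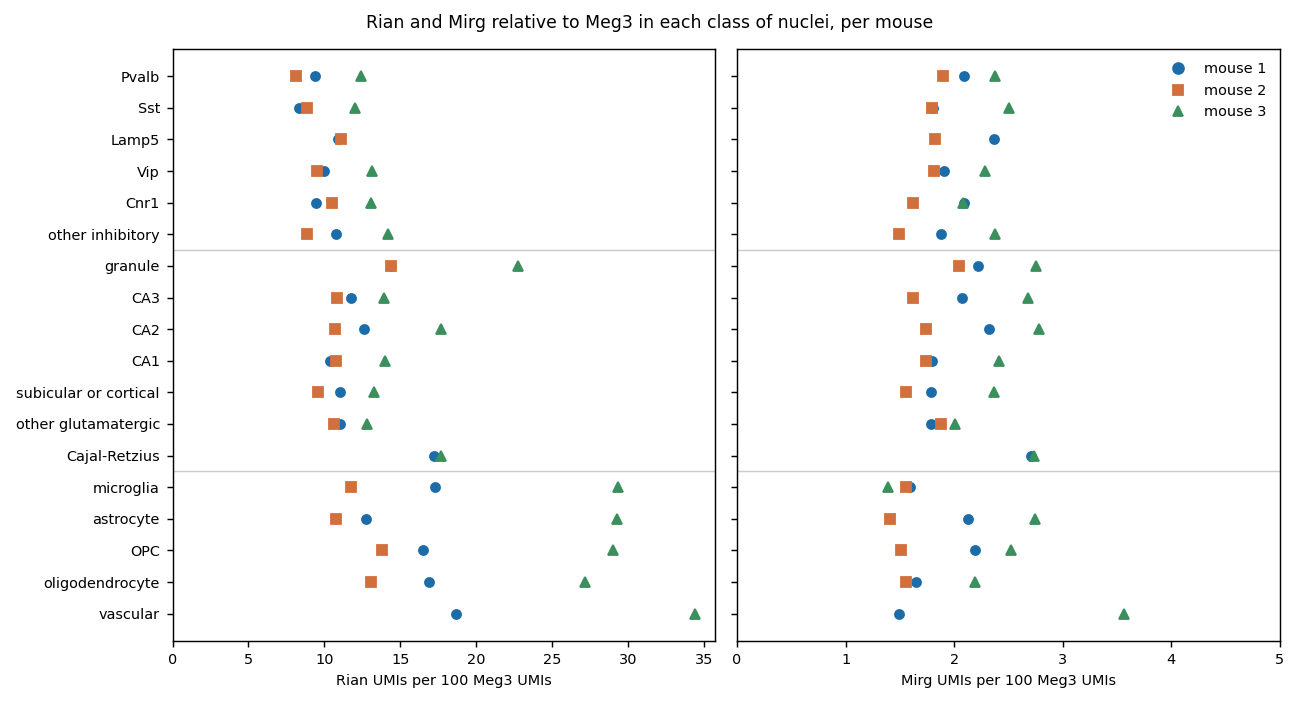
Rian (left) and Mirg (right) UMIs per 100 Meg3 UMIs in each class, with 1 point per mouse. The Rian ratio was 27.1 in oligodendrocyte-like and 29.0 in OPC-like nuclei of mouse 3, against 12.4 in Pvalb-like nuclei of the same mouse, while the Mirg ratio stayed between 1 and 4.

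Nucleus by nucleus, Meg3 and Rian shares had a Spearman rho of 0.39, 0.13 and 0.59 in CA1-like and 0.37, 0.18 and 0.55 in granule-like nuclei of mice 1, 2 and 3. In oligodendrocyte-like nuclei it was 0.10, 0.19 and 0.09. Meg3 and Mirg had 0.23, 0.06 and 0.43 in CA1-like nuclei. These values share the library and its depth: among CA1- and granule-like nuclei the deepest library gave the highest rho and the shallowest the lowest.

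Of the other genes of the domain, 6 were listed and 5 tested between neuron- and glia-like nuclei. Begain, at the edge of the domain, was the only one called by edgeR: it had 20.9, 17.4 and 16.3 CPM in neuron-like nuclei, against 12.2, 8.83 and 7.03 CPM in glia-like nuclei (log2 fold 1.37 ± 0.24 SE, adjusted p = 0.0249, edgeR; without mouse 1 0.112, without mouse 3 0.110). DESeq2 also called Rtl1, a retrotransposon-derived gene made from the paternal copy (2.26, adjusted p = 0.0004; edgeR 2.17, adjusted p = 0.0573). Begain was also called lower in granule-like than in CA pyramidal-like nuclei (-1.24, adjusted p = 0.00941). Dlk1, a paternally expressed Notch ligand relative, was called lower in inhibitory-like than in glutamatergic-like nuclei (-2.12, adjusted p = 0.0349, edgeR), at only 0.229 and 0.882 CPM. DESeq2 did not call Dlk1 (adjusted p = 0.0746), and leaving out mice 1, 2 and 3 gave 0.184, 0.0438 and 0.108. None of the list was called by edgeR or DESeq2 in the other 3 comparisons, where 2 of 4, 0 of 4 and 0 of 4 had an unadjusted p under 0.05 (CA3-, OPC- and microglia-like). The list's median log2 fold between neuron- and glia-like nuclei was 0.81, beside 0.03 over all genes, of which 26.4% were called.

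Miat was higher in neuron-like nuclei and, among them, higher in glutamatergic-like than in inhibitory-like nuclei taken as joined groups, the reverse of Meg3. It had 291, 222 and 197 CPM in neuron-like nuclei, against 83.7, 113 and 39.8 CPM in glia-like nuclei. The groups did not overlap, and Miat was called higher (log2 fold 2.08 ± 0.40 SE, adjusted p = 0.029, edgeR; without mouse 1 0.138, without mouse 2 0.0013 and without mouse 3 0.117).

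Miat had 173, 156 and 123 CPM in inhibitory-like nuclei, against 308, 240 and 205 CPM in glutamatergic-like nuclei. These did not overlap, and Miat passed the adjusted p at under 2-fold (log2 fold -0.84 ± 0.11 SE, adjusted p = 0.00745, edgeR). Leaving out mouse 1 gave -0.77 with an adjusted p of 0.0854. Inhibitory-like classes differed among themselves: Pvalb-like nuclei had 78.3, 90.8 and 64.3 CPM, and Sst-like nuclei 249, 213 and 206 CPM. Both are interneuron types of the medial ganglionic eminence, and their Miat ranges did not overlap. With mouse 2 clustered alone, none of its clusters was named Pvalb- or Sst-like. Granule-like nuclei, a glutamatergic class, averaged 169 CPM. That is under Sst-, Lamp5- and Cnr1-like nuclei (223, 186 and 183 CPM) and over Vip-, other inhibitory- and Pvalb-like nuclei (166, 107 and 77.8 CPM).

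After thinning, Miat was seen in 8.40%, 10.6% and 10.2% of Pvalb-like nuclei, 18.8%, 22.8% and 16.0% of Sst-like nuclei and 35.3%, 30.2% and 18.6% of CA1-like nuclei. The CA1-like share of mouse 3 lay within the Sst-like range.

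CA3-like nuclei had 283, 207 and 151 Miat CPM, against 370, 263 and 207 CPM in CA1-like nuclei. Miat was lower in 3 of 3 mice and was the only member to pass the adjusted p (log2 fold -0.33 ± 0.08 SE, adjusted p = 0.0449, edgeR), while the ranges overlapped. DESeq2 gave an adjusted p of 0.0802, and leaving out mice 1, 2 and 3 gave 0.205, 0.124 and 0.083. None of the 7 was called between these fields by edgeR or DESeq2, where edgeR called 8.25% of 15100 genes (4.48% upward and 3.77% downward). Miat was the 1 member with an unadjusted p under 0.05 in edgeR, beside 4533 of the 15100 genes. The members' median log2 fold was -0.06, beside -0.01 over all genes.

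Granule-like nuclei averaged 169 ± 6.99 Miat CPM (SD, n = 3), against 258 ± 79.6 CPM in CA pyramidal-like nuclei, a difference that did not pass (log2 fold -0.50 ± 0.20 SE, adjusted p = 0.118, edgeR). Granule-like clusters differed more than the mice did, in pairs picked here after their values were seen. In mouse 1, clusters 1 and 11 (1057 and 650 nuclei) had 87.4 and 267 Miat CPM, and another cluster, of 137 nuclei, had 221 CPM. In mouse 2 clusters 1 and 11 had 74.0 and 193 CPM, but most of its granule-like nuclei (623, median 2346 UMIs) lay in another with 249.9 CPM. In mouse 3, clusters 6 and 21 (870 and 474 nuclei) had 99.7 and 255 CPM. The medians of the pair in mouse 1 were 9379 and 12032.5 UMIs.

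Of 5 listed splicing factors known to bind Miat or its motif, 2 were called higher and 1 lower in neuron- than in glia-like nuclei. Of all genes, 11% were called higher and 15.4% lower there. Qk, a factor of myelinating glia, was lower (log2 fold -2.80, adjusted p = 0.0223, edgeR) and Celf3, a neuronal factor, was higher (1.99, adjusted p = 0.0375). Celf4 was higher in CA3-like than CA1-like nuclei (1.20, adjusted p = 0.0008), where Miat had the lower values. None of the 5 was called by edgeR in the other 4 comparisons, though 1 to 4 had an unadjusted p under 0.05 in each, and DESeq2 called 1 in microglia-like nuclei. In inhibitory-like nuclei 3 of the 5 passed the adjusted p alone in edgeR, as did 4368 of 16640 genes at any fold. In granule-like nuclei 3 of the 5 did, as did 3931 of 16712 genes. The list's median was 0.53 between neuron- and glia-like nuclei, beside 0.03 over all genes.

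Snhg11 was higher in neuron-like nuclei, and lower in granule- than in CA pyramidal-like nuclei. It had 3626, 3452 and 2695 CPM in neuron-like nuclei, against 868, 1770 and 457 CPM in glia-like nuclei. These did not overlap, and Snhg11 was called higher (log2 fold 2.25 ± 0.59 SE, adjusted p = 0.0467, edgeR). The adjusted p was 0.0604 with thinned nuclei and 0.055 with each library clustered alone, and leaving out mice 1, 2 and 3 gave 0.298, 0.0015 and 0.242.

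Granule-like nuclei had 1511, 1616 and 1210 Snhg11 CPM, against 3791, 3273 and 2899 CPM in CA pyramidal-like nuclei. The groups were far apart, and Snhg11 was called lower (log2 fold -1.13 ± 0.14 SE, adjusted p = 0.00341, edgeR), also with each mouse left out (-1.09 to -1.24). Without the mouse block the fold was -1.14 and the adjusted p 0.0682. Granule-like nuclei, at 1446 ± 211 CPM, did not overlap the CA2-like class above (2921 ± 317 CPM, SD, n = 3 each).

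Inhibitory-like nuclei had 5785, 4486 and 4097 Snhg11 CPM, against 3331, 3177 and 2541 CPM in glutamatergic-like nuclei, without overlap and at under 2-fold (log2 fold 0.55 ± 0.14 SE, adjusted p = 0.0416, edgeR). Leaving out mice 1, 2 and 3 gave adjusted p of 0.266, 0.073 and 0.103, and the value without the mouse block was 0.344. Cnr1-like nuclei had the highest mean, 5381 ± 1298 CPM. After thinning, Snhg11 was seen in 89.7%, 95.1% and 82.4% of neuron-like nuclei, against 60.2%, 75.9% and 35.5% of glia-like nuclei. Per nucleus, Snhg11 and Meg3 shares had a Spearman rho of 0.43, 0.24 and 0.57 in CA1-like nuclei of mice 1, 2 and 3.

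**Figure D5:**
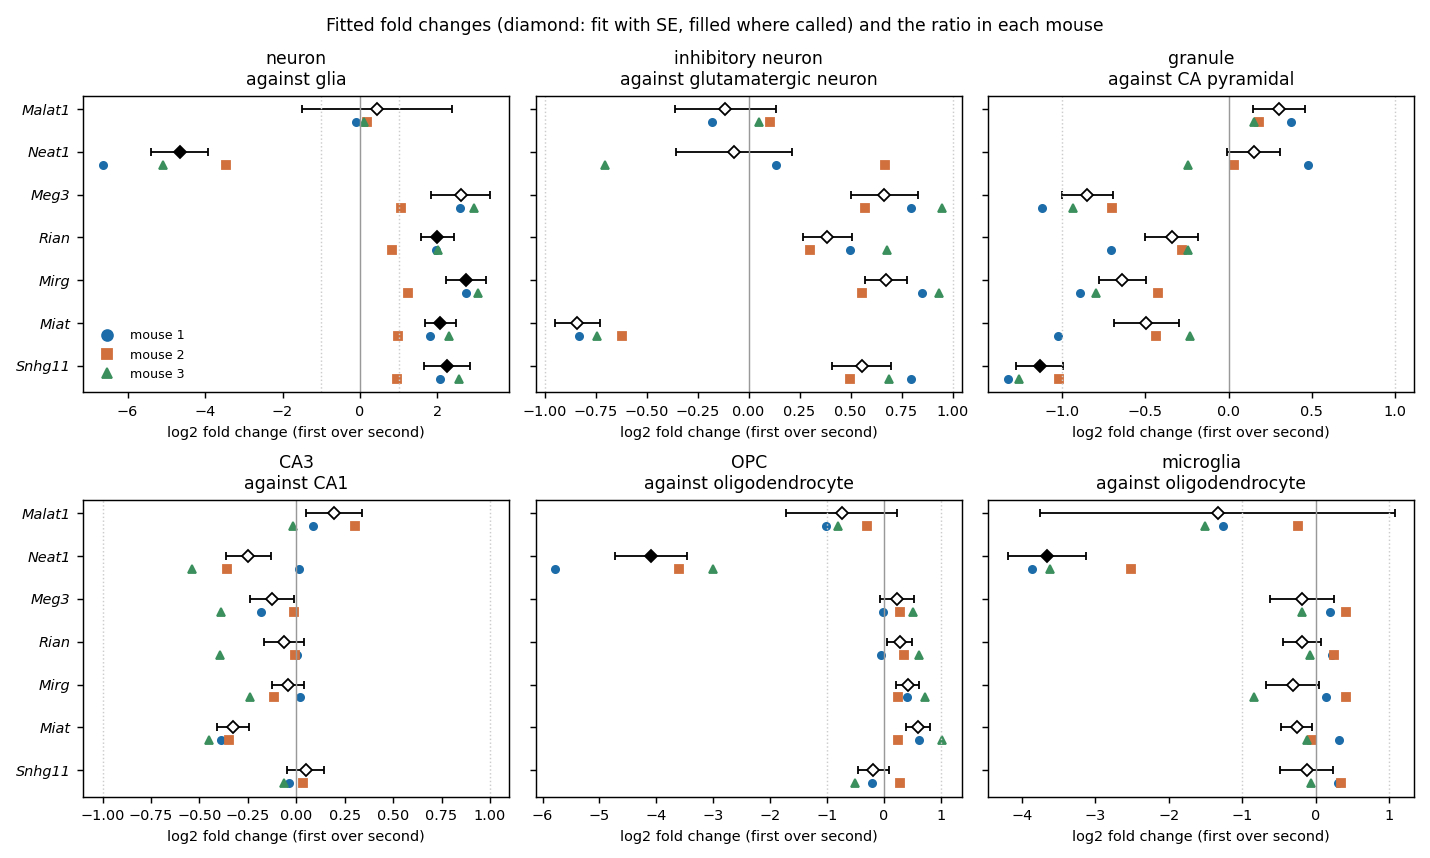
Log2 fold change of each RNA in the 6 comparisons, first class over second, with diamonds for the edgeR value and its SE, filled where called, and smaller points for the CPM ratio in each mouse. In neuron- against glia-like nuclei 5 of the 7 diamonds are filled, and in each comparison of glial classes Neat1 alone is.

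Few other snoRNA host genes were called, where 26.4% of all genes were called in neuron-, 15.1% in inhibitory- and 17.7% in OPC-like nuclei. Of 14 snoRNA host genes tested, 1 was called higher in neuron- than in glia-like nuclei: Snhg14, the host of the imprinted Snord115 and Snord116 clusters, had 896, 792 and 899 CPM in neuron-like nuclei, against 194, 498 and 239 CPM in glia-like nuclei (log2 fold 2.00 ± 0.47 SE, adjusted p = 0.0384, edgeR). Of the 2 entries named Snhg4, 1 was called higher in inhibitory-like nuclei (1.48, adjusted p = 0.0169), and Snhg3 was called lower in OPC- than in oligodendrocyte-like nuclei (-1.56, adjusted p = 0.0494). None was called by edgeR or DESeq2 in the other 3 comparisons, where 2 or 3 had an unadjusted p under 0.05. The list's medians lay between -0.23 and 0.06.

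The protein partners of Malat1 and Neat1 showed no calls. None of 15 paraspeckle proteins and none of 16 nuclear speckle proteins was called by edgeR or DESeq2 in any of the 6 comparisons, where edgeR called 8.25% to 26.4% of all genes. Over those comparisons, 11 of 90 paraspeckle and 11 of 96 speckle tests had an unadjusted p under 0.05. Both lists had a lower share of such tests than all genes, which ran from 4533 of 15100 (CA3-like) to 8470 of 17633 (neuron-like). Their medians between OPC- and oligodendrocyte-like nuclei, where Neat1 had a log2 fold of -4.09, were -0.03 for paraspeckle and -0.10 for speckle proteins, beside -0.03 over all genes. Other long noncoding RNAs moved in places: of 15 tested, 5 were called higher in neuron- than in glia-like nuclei, among them Dlx6os1 (2.68) and Airn (1.03). Of all genes, 11% were called higher there. Airn had 60.4, 78.3 and 39.2 CPM in neuron-like nuclei, against 28.3, 50.0 and 34.3 CPM in glia-like nuclei. These ranges overlapped, and the log2 ratios of Airn within mice were 1.09, 0.65 and 0.19.

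Dlx6os1, made beside the interneuron genes Dlx5 and Dlx6, was called higher in inhibitory- than in glutamatergic-like nuclei (log2 fold 6.90) and Rmst lower (-1.30), the list's 1 call in each direction. Of the same 15, 3 were called higher and 2 lower in granule- than in CA pyramidal-like nuclei, with Xist higher (1.28) and Pantr1 lower (-1.39). In CA3- against CA1-like nuclei 1 was higher, Pvt1 (1.10), and 2 lower, led by Pantr1 (-3.38). Mir9-3hg (4.79) and Airn (1.501) were the 2 called higher in OPC- than in oligodendrocyte-like nuclei, and in microglia-like nuclei edgeR called none (3 had an unadjusted p under 0.05) and DESeq2 called 1. Of all genes, edgeR called 15.1% in inhibitory-, 16% in granule-, 8.25% in CA3-, 17.7% in OPC- and 16.6% in microglia-like nuclei.

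Of 14 imprinted genes outside the domain tested between neuron- and glia-like nuclei, 6 were higher, with Peg3 at a log2 fold of 1.59, and 1, Cdkn1c, was lower (-4.13). Cdkn1c averaged only 0.0778 CPM in neuron-like and 1.77 CPM in glia-like nuclei, so its fold rests on few counts. In inhibitory- against glutamatergic-like nuclei 4 of 13 were higher, led by Grb10 (1.18) and Peg3 (1.07), and 1 was lower. In granule- against CA pyramidal-like nuclei Grb10 was higher (1.69) and Nnat lower (-1.75), each the only call in its direction. Plagl1, a transcription factor gene, was higher in CA3- than in CA1-like nuclei (2.07) and lower than in oligodendrocyte-like nuclei in both OPC-like (-3.23) and microglia-like nuclei (-3.50). Mest was the 1 called higher in OPC-like nuclei (1.15; DESeq2 adjusted p = 0.0872). Calls numbered 7 of 14 in neuron- and 5 of 13 in inhibitory-like nuclei, where 26.4% and 15.1% of all genes were called. The other calls were 2 of 13 in granule-, 1 of 12 in CA3-, 2 of 11 in OPC- and 1 of 11 in microglia-like nuclei, where 16%, 8.25%, 17.7% and 16.6% of all genes were called.

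Of 13 RNA quality and stress genes, none was called by edgeR between neuron- and glia-like nuclei (6 with an unadjusted p under 0.05) or in the CA3-, OPC- and microglia-like comparisons (1, 2 and 3 such genes). DESeq2 called 1 in neuron- and 1 in microglia-like nuclei. Fos was called higher in inhibitory- than in glutamatergic-like nuclei (log2 fold 1.23), and Atf3 higher in granule- than in CA pyramidal-like nuclei (3.63), with overlapping ranges. Their part in the members' values in those comparisons was not tested. Of the 7 glutamatergic markers, which also served to name classes, 6 were called higher in neuron- than in glia-like nuclei and all 7 lower in inhibitory-like nuclei.

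Across classes, each member's profile was compared with 7272 genes by Pearson's r of log2(CPM + 1) over 18, 16 and 17 classes of mice 1, 2 and 3, averaged over mice. B830012L14Rik, an annotated transcript between Rian and Mirg at chr12:109695586-109702587, was most like all 3 domain RNAs, with 0.96 for Meg3, 0.96 for Rian and 0.97 for Mirg. Snhg14 was next for each, with 0.96, 0.93 and 0.96. The third gene was Ube3a for Meg3 (0.93) and Cacna1b for Rian and Mirg (0.92 each). Snhg14 was also the gene most like Snhg11 (0.94), ahead of Syt1 (0.93) and Cacna1b (0.92).

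Neat1 was most like Ppfibp2 (0.91), Cdk19 (0.91) and Mobp (0.90), a myelin protein gene. Mobp was also among the markers that served to name oligodendrocyte-like nuclei. Miat was most like Hook1 (0.85), Phf24 (0.84) and Lrfn5 (0.83). Malat1 had no close match: the highest were Tle1 (0.59), Coro2b (0.59) and Sptbn1 (0.53). The classes share libraries, depth and free RNA, so these r values are descriptions.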

How the data were processed

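Each deposited matrix holds unnormalized UMI counts by gene and barcode. Per the file headers the authors ran Cell Ranger, version 7.1.0 in mouse 3 and 7.0.0 in the others. The build was mm10, per the submitters' processing notes, and the treatment of intronic reads is not given in the sources that were used. Nuclei were sorted on propidium iodide and prepared for 3' counting, per the labels' protocols. Library totals are in the text, and their intervals cover counting error only.

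Barcodes under 500 genes (242, 703 and 1) were dropped, and none exceeded the limit of 5% mitochondrial UMIs. Scrublet called 732, 1445 and 265 doublets, which were removed. In mouse 2 its automatic threshold called 0, so the expected rate of 0.8% per 1000 nuclei was used. Clustering (scanpy 1.11.5, leidenalg 0.10.2) used 3000 variable genes without the members, 30 components, 20 neighbours and resolution 3 (inhibitory nuclei 1.5), giving 62 clusters. They were named by at least 3 markers at 2-fold, and clusters without that support stayed broad or unnamed. Names were rebuilt here and may differ from the study's. Counts were summed per mouse and class and tested with edgeR 4.0.16 (R 4.3.3) with TMM factors, filterByExpr and Benjamini-Hochberg adjustment. Both sums of a comparison come from the same animal, so mouse was a block. Same-animal deviations correlated at 0.0603 to 0.355 for neuron- against glia-like nuclei and at 0.276 or above elsewhere.

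The members and the 8 other lists were chosen with earlier results of these data known, and resolution and naming rules were set after clusters were seen. All 7 members are named in each comparison. From each other list, up to 2 called genes with the smallest adjusted p are named. In likeness the 3 best genes with at least 20 CPM are named. Alternatives were DESeq2 1.42.0, other scaling and filters, no block, thinning, other clustering, kept doublets, each mouse left out and, chosen after seeing the data, nuclei of at least 2500 UMIs.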

Additional observations from a re-analysis of the deposited data

Results flagged for a closer look

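Both sets of barcodes left out of the classes held all 7 RNAs above the level that 3 counts would give. The barcodes under 500 genes numbered 242 in mouse 1 and 703 in mouse 2, with 134208 and 391231 UMIs, for which 3 counts are 22.4 and 7.67 CPM. The nuclei of unnamed clusters in mice 1 and 2 had floors of 6.22 and 0.307 CPM. In the barcodes under 500 genes, Malat1 had 82007 and 55233 CPM, Meg3 4776 and 4632 CPM and Snhg11 3726 and 2937 CPM in mice 1 and 2. Rian had 879 and 726 CPM there, Mirg 201 and 89.5 CPM, Miat 246 and 199 CPM and Neat1 164 and 332 CPM.

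In the unnamed clusters, Malat1 had 70583 and 120894 CPM, Meg3 7665 and 6356 CPM and Snhg11 5327 and 2868 CPM in mice 1 and 2. Rian had 1068 and 650.4 CPM, Mirg 145 and 97.9 CPM, Miat 564 and 222 CPM and Neat1 222 and 100.2 CPM. Most unnamed nuclei of mouse 1 (280) and 1321 of mouse 2 lay in a cluster with a median of 850.5 and 798 UMIs. That cluster had 80491 and 54452 Malat1 CPM in mice 1 and 2. Another unnamed cluster of mouse 2 was deeper (768 nuclei, median 6480 UMIs) and had 156608 Malat1 CPM. What these barcodes hold was not tested.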

How the results depend on the processing

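These limits apply throughout: mouse 2 was shallow, and with 1 mouse left out only 2 pairs remain. The count of members called ranged from 0 to 6 with a mouse left out in neuron- against glia-like nuclei, from 0 to 1 in OPC-like and from 0 to 2 in microglia- against oligodendrocyte-like nuclei, was 1 in each case in granule-like and 0 in inhibitory- and CA3-like nuclei. With no replicate block the paired comparison of granule- with CA pyramidal-like nuclei had 0 members called, where 1297 of 16712 genes were called. DESeq2 called 2 members in microglia-like nuclei, where it called 2893 of 13136 genes. Over all genes, 4661 were called between neuron- and glia-like nuclei. This became 2499 with thinned nuclei, 6611 without mouse 2 and 0 without mouse 1 or 3. Without scaling factors 1294 were called higher and 3650 lower, against 1944 and 2717, and the median of all genes was -0.353 in place of 0.03. With thinned nuclei the counts were 1076 in place of 2511 in inhibitory-, 857 in place of 2681 in granule-, 417 in place of 1246 in CA3- and 1244 in place of 2166 in OPC-like nuclei. With no replicate block they were 1287, 1297 and 249 in the first 3 of these. In OPC-like nuclei leaving out mice 1, 2 and 3 gave 744, 3325 and 0, and in microglia-like nuclei 0, 4211 and 0 in place of 2187. Leaving out mice 1, 2 and 3 gave 0, 2759 and 1882 in inhibitory-like, 2035, 2699 and 2000 in granule-like and 948, 1306 and 1164 in CA3-like nuclei. The cause of these changes was not tested.

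Of 588 refitted member folds, 532 kept direction and side of the threshold, 10 gained it, 16 lost it and 30 turned, and no member was called in a comparison where its fold turned. With a mouse left out, the log2 fold of Neat1 ran from -0.43 to 0.34 in inhibitory- against glutamatergic-like and from -0.056 to 0.29 in granule- against CA pyramidal-like nuclei. In CA3- against CA1-like nuclei it ran from -0.14 to 0.048 for Rian and from -0.091 to 0.0043 for Mirg. In microglia- against oligodendrocyte-like nuclei it ran from -0.38 to 0.071 for Meg3, from -0.31 to 0.0088 for Rian, from -0.64 to 0.067 for Mirg and from -0.26 to 0.099 for Snhg11. In inhibitory-like nuclei Neat1 became 0.034 without scaling factors, 0.090 with doublets kept and 0.030 with nuclei of at least 2500 UMIs, and in granule-like nuclei -0.0049 with doublets kept. In CA3-like nuclei, clustering each library alone gave Neat1 0.10, Rian 0.010 and Mirg 0.047, thinning gave Mirg 0.18 and no scaling gave Snhg11 -0.022. In OPC-like nuclei, keeping doublets gave Snhg11 0.12. In microglia-like nuclei, no scaling gave Meg3 0.14, Rian 0.14, Miat 0.056 and Snhg11 0.20, and no block gave Meg3 0.080 and Snhg11 0.044. Keeping doublets there gave Meg3 0.38, Rian 0.11, Mirg 0.32, Miat 0.22 and Snhg11 0.29, and nuclei of at least 2500 UMIs gave Snhg11 0.074. Of the class levels, 797 values moved by less than the spread over mice and 15 by more. With each library clustered alone, where no nuclei were named Cnr1-like, only 84 levels were compared, against 91 with doublets kept. Of the shares of nuclei with a UMI, 105 of 182 moved when nuclei were thinned to 500 or 2000 UMIs, as a share depends on that depth, and of the counts of listed genes called, 108 of 672 moved by over 1.5 times.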
